A study of Mus musculus with 5 samples.

Results

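Absorptive enterocytes line the small intestinal villi and carry out most of the uptake of fat, peptides and sugars. The genes described here are 44 of the 31253 genes in the files. They were chosen by name as genes of enterocyte absorption, lipid handling and the brush border, with earlier results of these data known. They were read in the 2 intestinal libraries of the series. Of the 44, 15 serve lipid uptake and export, 7 peptide digestion and uptake, 8 sugar digestion, uptake and metabolism, 5 detoxification and amino acid breakdown, and 9 the structure or surface of the brush border and the mature enterocyte. Each gene was measured in enterocytes, taken as cells whose Fabp1, Fabp2, Apoa1 and Anpep molecules made up at least 0.5% of their unique molecular identifiers (UMIs), and in cells of the clusters named ILC3-like, where the same genes give the level of enterocyte RNA found with other cells. The 4 genes of that gate are members too, so their enterocyte levels are a description, and 40 members lie outside the gate.

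The series holds 5 single-cell libraries of male mice 8 to 10 weeks old, 1 per group. It holds kidneys and small intestines after unilateral ureteral obstruction (UUO), in which the left ureter is tied and cut. The kidneys were taken 3 or 14 days after UUO from wild-type mice and 3 days after UUO from mice labelled PD-1 knockout, which lack the inhibitory receptor encoded by Pdcd1. The 2 intestinal libraries come from mice whose strain is given as wild type, one after sham surgery, in which the ureter was exposed and not tied, and one 3 days after UUO. How many mice went into a library, and which inbred strain they were, the sources used here do not say. According to the labels these are sorted group 3 innate lymphoid cells (ILC3s), lymphocytes of the gut wall that make interleukin-22, so the enterocytes are cells that the sort did not set out to collect, and their number says nothing of the number in the tissue. The digestion written in the labels is one for pulmonary artery, which does not match the organs named. With 1 library per group there is no replicate and no test: every interval given is a 95% interval for counting error only, and a difference between the libraries cannot be told apart from a difference between mice, preparations or sorts.

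In an enterocyte, dietary fat is taken up as fatty acids and cholesterol, rebuilt into triglyceride in the endoplasmic reticulum and exported as chylomicrons built on apolipoprotein B. Peptides and disaccharides are cut by enzymes anchored in the brush border membrane and enter through transporters of the solute carrier families. Many of these genes are known targets of the transcription factors HNF4 and CDX2, which maintain the identity of the intestinal epithelium. RNA set free by damaged cells is captured with intact cells in single-cell libraries, so abundant enterocyte transcripts can be counted in lymphocytes.

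The sham library held 8717372 UMIs in 3621 barcodes and the UUO library 14756545 UMIs in 5209. After filtering, 3501 and 4946 cells were kept. The gate took 112 cells in sham, 3.20% of kept cells (exact binomial interval 2.64 to 3.84%), and 323 after UUO, 6.53% (5.86 to 7.26%). Levels are given as counts per 1000000 UMIs (CPM). The gated cells held 6.68% of the UMIs of kept cells in sham and 17.5% after UUO. Of them, 111 and 305 lay in clusters with epithelial markers, and 0 and 18 in ILC3-like clusters. All 10 general epithelial markers were counted in both groups of enterocytes, with a summed level of 9841 CPM in sham and 8022 CPM after UUO. The 12 ILC3 markers summed to 2271 and 1721 CPM in enterocytes (3124 and 1999.5 CPM without the shared barcodes described below), against 15453 and 15005 CPM in ILC3-like cells. Between 0.5 and 0.75% of gate genes, just inside the gate, lay 9 sham and 35 UUO cells. Between 0.25 and 0.5%, just outside it, lay 22 and 378, of which 9 and 315 were ILC3-like.

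The libraries share cell barcodes, which bears on every enterocyte value. In all, 158 barcodes were deposited in both libraries, and 154 were kept in both. Of these pairs, 67 passed the gate in at least one library and 55 in both. All 67 differed at least 10-fold in depth, with a median difference of 41.3-fold, and the UUO copy was the deeper one in 42 pairs and the sham copy in 25. The shared barcodes made up 57 of the 112 sham enterocytes and 65 of the 323 UUO enterocytes. The 40 shallow copies in sham had a median of 587.5 UMIs, close to the smallest cells deposited, and the 17 deep copies a median of 19649 UMIs. Without shared barcodes 55 sham and 258 UUO enterocytes remained, with median depths of 2739 and 2480 UMIs. Whether a pair is 1 cell counted in both libraries was not tested, so the counts and medians are given with and without these barcodes, as are the ratios of single members where they bear on the call.

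**Figure D1:**
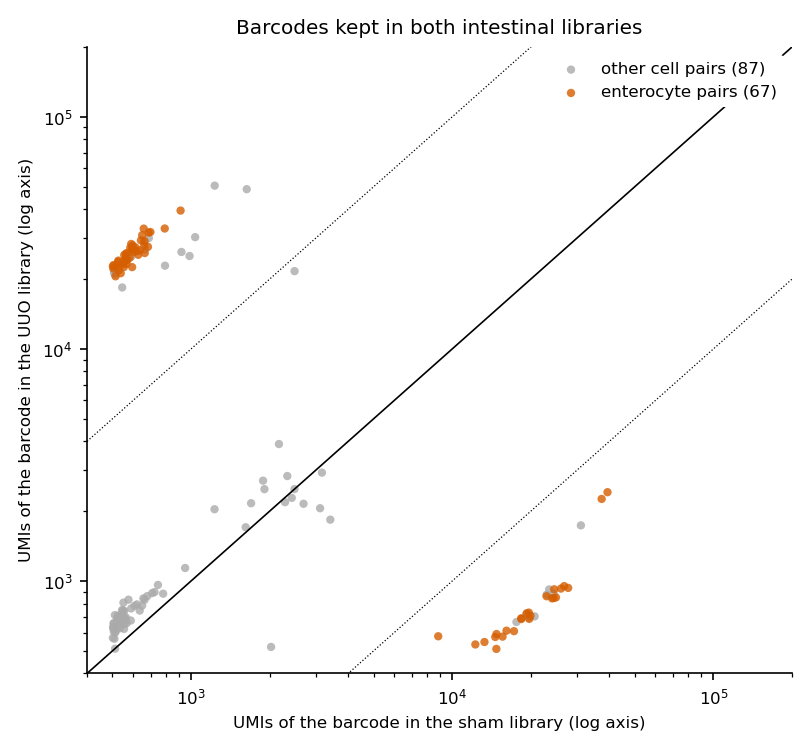
UMIs of each of the 154 barcodes kept in both intestinal libraries, in sham (horizontal, log axis) and after UUO (vertical, log axis), with the line of equal depth and dotted lines at 10-fold differences. The 67 enterocyte pairs lie beyond the dotted lines, 42 with the deeper copy in UUO and 25 with the deeper copy in sham, as do 23 of the 87 other pairs.

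Depth was uneven among the cells as well. The 10 deepest enterocytes gave 41.0% of the enterocyte UMIs in sham and 13.0% after UUO, so a sum over cells leans on few cells in sham. The shares were 45.9 and 15.8% without shared barcodes, so leaving these out did not ease this. Each ratio was therefore also taken with every cell weighted equally. Median mitochondrial shares were alike, 8.40% in sham enterocytes and 8.16% after UUO.

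In enterocytes, 43 of the 44 genes had at least 50 UMIs in the libraries together and were called measured. Of these, 22 were at least 1.5 times higher after UUO than in sham and 0 were at least 1.5 times lower. Over all 6352 genes measured, 9.23% were higher by that much and 11.4% lower. The members were not chosen independently of these data, so the shares of all genes given here are a description and not a test. The median log2 ratio of UUO over sham was 0.61 over the measured members and -0.07 over all measured genes. Among the 39 measured members outside the gate, 20 were higher, with a median of 0.68. Without the shared barcodes, 22 of the 43 were higher and 1, Dgat1, was lower, against 18.8% and 12.6% of 4602 genes measured. Without the shallow copies of shared barcodes alone, 23 were higher, for which no share of all genes was taken. With each cell weighted equally, shared barcodes included, 8 of the 43 were higher and 0 lower, against 21.0% and 15.8% of all genes. The share of members past 1.5-fold was then near the background. With equal weights and no shared barcodes 14 of the 43 were higher and 0 lower, for which no share of all genes was taken. Counts of the 43 include the gate genes, whose values chose the cells. Of the 39 outside the gate, 22 were higher without shared barcodes, 7 with equal weights and 13 with both. The 7 genes outside the gate that were higher by 1.5 times in all 4 ways of summing (with and without shared barcodes, by UMIs or by cells) were Creb3l3, Abca1, Slc15a1, Slc5a12, Sult6b2, Nat8f5 and Aldh4a1. Of all 6348 genes measured outside the gate, 3.28% passed in all 4. Abca1, Slc5a12, Sult6b2, Nat8f5 and Aldh4a1 had 15, 40, 25, 18 and 15 sham UMIs. They thus reached the minimum of 50 only through the UUO library, whose enterocytes held 2417312 UMIs against 554737 in sham. The 4 ways also reuse the same cells and are not independent.

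By function, outside the gate, the detoxification genes had the largest median log2 ratio, 1.72, with 5 of 5 at least 1.5 times higher. The sugar genes followed with 0.85 and 5 of 8, the peptide genes with 0.76 and 3 of 5, the lipid genes with 0.45 and 5 of 12, and the brush border and surface genes with 0.22 and 2 of 9. The detoxification median stayed the highest without shared barcodes (1.30), with cells weighted equally (0.75) and with both (1.03). The order of the other groups did not hold. Without shared barcodes the medians were 0.92 for sugar, 0.89 for peptide, 0.44 for lipid and 0.16 for brush border. With equal weights they were 0.04, 0.28, 0.23 and 0.28, which put sugar last. Differences between the function groups were not tested.

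**Figure D2:**
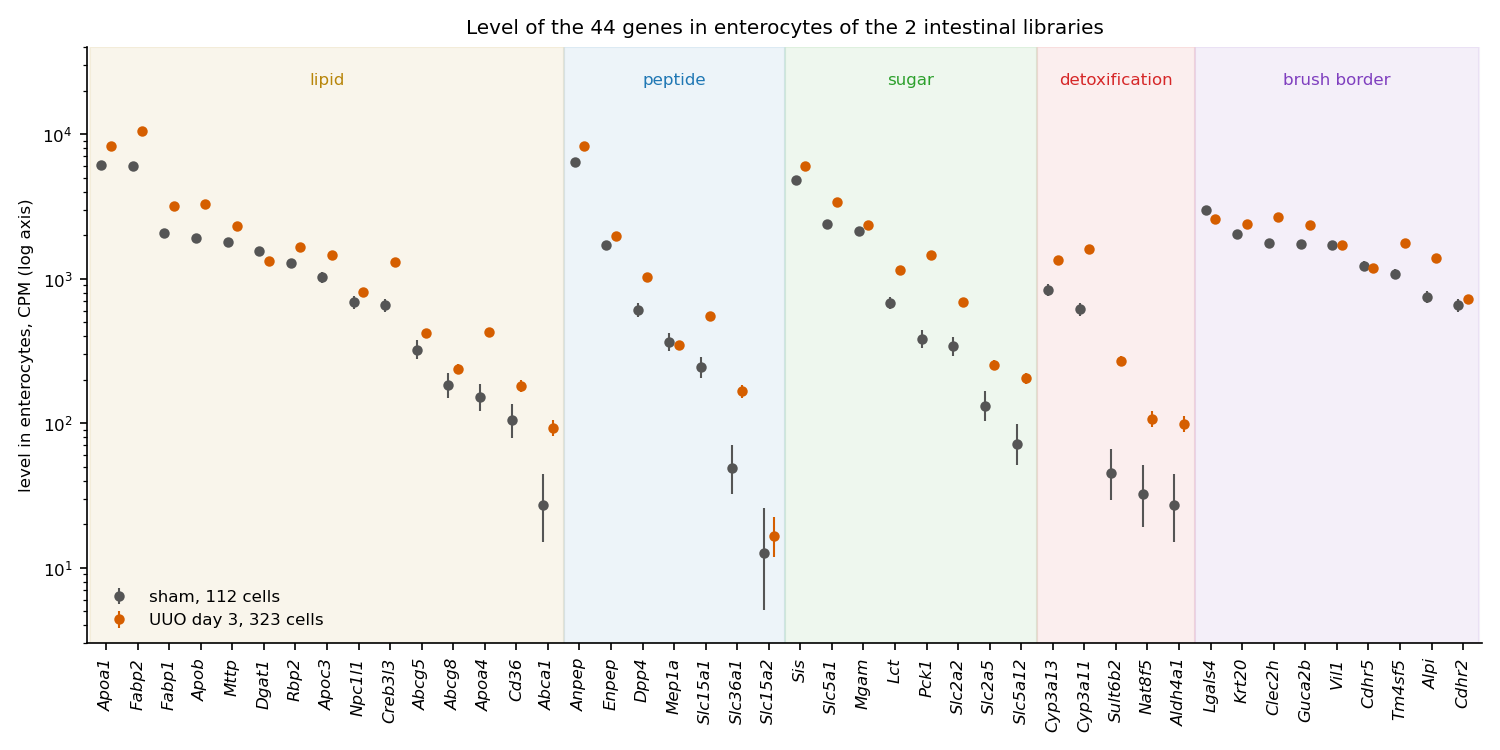
Level of each of the 44 genes in enterocytes, in CPM on a log axis, in sham (grey, 112 cells) and after UUO (orange, 323 cells), grouped by function, with exact Poisson 95% intervals for counting error. The pair of Sult6b2 points is the most separated, at 45.1 and 269 CPM, and the points of Vil1, Mep1a and Cdhr5 lie close together.

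Short stretches upstream of 4 genes that were at least 1.5 times higher by UMIs summed are shown because they carry a motif of an enterocyte factor. None of these genes was past 1.5-fold in all 4 ways of summing, and Fabp2 is a gene of the gate. Both the genes and the stretches were chosen after the values were seen. Each is the 200 bases before the RefSeq start (GRCm38.p6), 5′ to 3′ on the gene's strand, with the motif in capitals. The HNF4 motif CAAAGTCCA is marked for Cyp3a11 (chr5:145879855-145880054, minus strand, 109 to 101 bases before the start) and Alpi (chr1:87101607-87101806, minus strand, 19 to 11 bases before the start). The CDX2 motif TTTATTG is marked for Pck1 (chr2:173152873-173153072, plus strand, 155 to 149 bases before) and Fabp2 (chr3:122894872-122895071, plus strand, 65 to 59 bases before).
Cyp3a11: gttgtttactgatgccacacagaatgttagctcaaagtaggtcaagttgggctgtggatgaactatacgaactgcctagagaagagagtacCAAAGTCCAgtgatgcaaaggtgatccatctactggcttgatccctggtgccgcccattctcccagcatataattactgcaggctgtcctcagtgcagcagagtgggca
Alpi: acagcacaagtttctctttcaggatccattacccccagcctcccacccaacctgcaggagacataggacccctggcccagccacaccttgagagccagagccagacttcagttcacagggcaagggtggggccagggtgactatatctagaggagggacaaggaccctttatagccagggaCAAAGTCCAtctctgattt
Pck1: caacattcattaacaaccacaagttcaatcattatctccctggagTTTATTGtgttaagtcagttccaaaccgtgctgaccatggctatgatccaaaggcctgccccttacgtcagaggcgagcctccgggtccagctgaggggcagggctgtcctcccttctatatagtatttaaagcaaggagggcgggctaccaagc
Fabp2: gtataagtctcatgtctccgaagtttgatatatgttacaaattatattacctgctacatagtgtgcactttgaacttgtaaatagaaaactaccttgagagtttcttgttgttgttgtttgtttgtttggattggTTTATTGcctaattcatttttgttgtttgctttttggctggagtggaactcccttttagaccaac
Of the 44 genes, 41 had a promoter of 250 bases before to 50 after the start in the RefSeq table. On either strand, CAAAGTCCA was found in 2 of the 41 (4.88%), Alpi and Cyp3a11, against 0.475% of all 32851 promoters of that length. TTTATTG or TTTATGG was found in 6 of the 41 (14.6%), Clec2h, Fabp1, Fabp2, Mep1a, Pck1 and Sis, against 7.20% of all. The palindromic HNF1 motif was found in 0 of the 41 and in 0.00913% of all. A match is a string of letters and not a bound site. Genes with a match fell on both sides of the 1.5-fold mark: Mep1a, Sis and Clec2h had log2 ratios of -0.08, 0.34 and 0.58 in enterocytes.

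Among the lipid genes, Fabp1 and Fabp2, the cytosolic carriers of long-chain fatty acids, stood at 2071 and 5979 CPM in sham and 3166 and 10447 CPM after UUO. Apoa1, the main protein of high-density lipoprotein, stood at 6079 and 8224 CPM. Fabp2 was higher by a log2 ratio of 0.81 (0.75 to 0.86), Fabp1 by 0.61 and Apoa1 by 0.44. Without shared barcodes these were 0.55, 0.55 and -0.06, and with equal weights Fabp1 turned to -0.28. Rbp2, which carries retinol, went from 1274 to 1644 CPM, a log2 ratio of 0.37, or -0.20 with equal weights.

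The apolipoprotein genes Apoa1, Apoc3 and Apoa4 lie within 14.8 kb of each other on chromosome 9 (GRCm38, 46228630 to 46243458) and did not have the same ratio. Apoa4, a chylomicron apolipoprotein known to be induced by fat absorption, was at 151 CPM (121 to 187) in sham and 429 CPM (403 to 456) after UUO. Its log2 ratio was 1.502 (1.18 to 1.84) and 1.09 (0.59 to 1.63) without shared barcodes. Apoc3, an inhibitor of lipoprotein lipase, was at 1018.5 and 1453 CPM, with ratios of 0.51 (0.38 to 0.64) and -0.04 (-0.21 to 0.13). Only the Apoa4 difference was over 1.5-fold, and its interval did not overlap that of Apoc3 in either set of cells. With equal weights Apoa4 was at 0.57 and Apoc3 at 0.50, and with equal weights and no shared barcodes at 1.17 and 0.30.

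Of the assembly machinery, Apob, the scaffold of the chylomicron, was at 1909 CPM in sham and 3297 CPM after UUO, a log2 ratio of 0.79 that was 1.08 without shared barcodes and 0.25 with equal weights. Mttp, which loads lipid onto apolipoprotein B, was at 1797 and 2297 CPM, with ratios of 0.35 and 0.59. Creb3l3, a membrane-bound transcription factor that induces Apoa4 and other lipid genes, was at 653 CPM (587 to 723) and 1298 CPM (1253 to 1344). Its log2 ratio was 0.99 (0.83 to 1.15), 0.71 without shared barcodes and 0.74 with equal weights. Dgat1, which makes triglyceride, was the lipid gene with the lowest ratio, at 1556 and 1318 CPM (-0.24) and at -0.59 without shared barcodes. The level of Dgat1 was higher in ILC3-like cells, 3554 and 2827 CPM, and how much of its enterocyte count is lymphocyte RNA was not tested. By UMIs summed, Apob, Creb3l3 and Apoa4 were thus past 1.5-fold while Dgat1 was not. With equal weights Creb3l3 alone of the 3 was, and with equal weights and no shared barcodes Creb3l3 (0.87) and Apoa4 (1.17) were.

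The cholesterol genes split. The sterol importer Npc1l1 (687 and 805 CPM) and the exporter pair Abcg5 (323 and 423 CPM) and Abcg8 (184 and 238 CPM), neighbours on chromosome 17, had log2 ratios of 0.23, 0.39 and 0.37, all below 1.5-fold, and 0.05, 0.25 and 0.30 without shared barcodes. Abca1, which passes cholesterol to apolipoprotein A-I at the basal membrane, was at 27.0 CPM (15 UMIs) and 92.7 CPM (224 UMIs), a ratio of 1.78 (1.02 to 2.64). Abca1 kept a ratio of 1.66 without shared barcodes and 2.11 with equal weights, but it rests on 15 UMIs in sham. Cd36, a fatty acid receptor, was at 105 and 181 CPM (0.79, interval 0.40 to 1.21), with -0.09 under equal weights. With equal weights and no shared barcodes Cd36 was at 0.89, on 19 sham UMIs.

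The peptide genes held both transporters and membrane peptidases. Slc15a1, the proton-coupled transporter of dietary di- and tripeptides, was at 243 CPM (204 to 288) in sham and 555 CPM (525 to 585) after UUO. Its log2 ratio was 1.19 (0.93 to 1.45), 1.14 without shared barcodes, 1.28 with equal weights and 1.48 with both. Slc36a1, a proton-coupled carrier of small amino acids, was at 48.7 CPM (27 UMIs) and 165 CPM (400 UMIs), with a ratio of 1.77 that was 1.32 without shared barcodes and 0.28 with equal weights. Slc15a2, the high-affinity peptide transporter better known from kidney, had 7 and 40 UMIs in enterocytes and was not measured.

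Of the peptidases, Dpp4, which removes dipeptides from the amino end, was at 604 and 1025 CPM, a log2 ratio of 0.76 (0.60 to 0.93) and 0.89 without shared barcodes. Anpep, the aminopeptidase N of the gate, was at 6419 and 8212 CPM (0.36, and 0.15 without shared barcodes). Enpep, the glutamyl aminopeptidase, was at 1709 and 1956 CPM, a ratio of 0.19 (0.09 to 0.30). Without shared barcodes Enpep was past 1.5-fold, at 0.62 (0.43 to 0.81), and with equal weights it was at -0.02. Mep1a, a subunit of the metalloprotease meprin, was at 364 and 345 CPM, and its ratio of -0.08 (-0.30 to 0.15), or 0.03 without shared barcodes, had an interval across 0. Over all enterocytes the peptide transporter was thus over 2 times higher while meprin was level within counting error. This did not hold when the cells without shared barcodes were split by ileal character, as described below. Mep1a was then at 0.34 (-0.05 to 0.73) in ileal-type cells and at 1.10 (0.38 to 1.93, 16 sham UMIs) in other cells.

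The sugar genes ranged from 0.14 to 1.93. The disaccharidases sucrase-isomaltase (Sis, 4784 and 6039 CPM), maltase-glucoamylase (Mgam, 2147 and 2364 CPM) and lactase (Lct, 678 and 1143 CPM) had log2 ratios of 0.34, 0.14 and 0.75. Without shared barcodes Sis was at 1.10 and Lct at 0.26, so which disaccharidase passed 1.5-fold depended on the cells summed. The apical sodium-glucose transporter Slc5a1 was at 2389 and 3398 CPM, a ratio of 0.51 (0.42 to 0.59), and 0.01 with equal weights. The basolateral hexose transporter Slc2a2 (339 and 692 CPM, 1.03) and the fructose transporter Slc2a5 (132 and 254 CPM, 0.95) were at 0.07 and -0.28 with equal weights.

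Pck1, the cytosolic phosphoenolpyruvate carboxykinase of gluconeogenesis, was at 382 CPM (332 to 437) in sham and 1456 CPM (1408 to 1505) after UUO. The log2 ratio of Pck1 was 1.93 (1.73 to 2.14), 1.63 without shared barcodes, 1.11 without them and with equal weights, and 0.36 over all enterocytes with equal weights. Slc5a12, a sodium-coupled carrier of lactate and other monocarboxylates, was at 72.1 and 204 CPM, with a ratio of 1.503 (1.04 to 2.01) that was 0.63 or more in all 4 ways of summing. G6pc, the last enzyme of glucose release and no member of the 44, differed the other way, with 84.7 CPM in sham and 25.6 CPM after UUO (-1.72, interval -2.29 to -1.15), or -0.88 without shared barcodes.

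The detoxification genes were all higher after UUO by UMIs summed. Cyp3a11, the main drug-oxidising cytochrome P450 of mouse liver and gut, was at 613 CPM (549 to 682) in sham and 1604 CPM (1554 to 1655) after UUO. Its log2 ratio was 1.39 (1.23 to 1.55), 1.29 without shared barcodes, 0.41 with equal weights and 1.03 with both. Cyp3a13, of the same family, was at 833 and 1333 CPM, a ratio of 0.68 (0.54 to 0.82), with 0.52, 0.38 and 0.43 in those alternatives. The Cyp3a genes are near-identical copies in part, as are those of the Sult6b and Nat8 families, so the split of UMIs among family members is uncertain.

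Sult6b2, a sulfotransferase, had the largest ratio of the 44. It had 25 UMIs in sham (45.1 CPM) and 650 UMIs after UUO (269 CPM), a log2 ratio of 2.58 (2.00 to 3.22), and 5 sham UMIs remained without shared barcodes (2.95, interval 1.71 to 4.58). With equal weights over all enterocytes it was 0.75. Nat8f5, an N-acetyltransferase family member, was at 32.4 CPM (18 UMIs) and 107 CPM (258 UMIs), with a ratio of 1.72 (1.03 to 2.50), and 1.39 without shared barcodes. Aldh4a1, a mitochondrial enzyme of proline breakdown, was at 27.0 CPM (15 UMIs) and 98.9 CPM (239 UMIs), with 1.87 (1.12 to 2.73), and 1.30 without shared barcodes. These 3 genes rest on 25 or fewer sham UMIs, which their wide intervals show.

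The brush border and surface genes had the smallest median ratio by UMIs summed. Vil1, which bundles the actin of microvilli, was at 1719.7 CPM in sham and 1712 CPM after UUO, a log2 ratio of -0.01 (-0.11 to 0.10). The cadherins that link microvilli tips, Cdhr2 (654 and 724 CPM) and Cdhr5 (1222 and 1176 CPM), were at 0.14 and -0.06. Lgals4, a galectin of lipid rafts, was at 2987 and 2563 CPM (-0.22, interval -0.30 to -0.14). Krt20, a keratin of mature villus cells, and Guca2b, the secreted peptide uroguanylin, were at 0.22 and 0.44. Without shared barcodes Vil1, Cdhr2 and Cdhr5 were at 0.16, -0.27 and -0.23, Lgals4 at -0.17, Krt20 at 0.38 and Guca2b at -0.07.

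Higher by 1.5 times in this group were Alpi, the intestinal alkaline phosphatase, from 748 CPM (678 to 824) to 1385 CPM (1338 to 1432), and Tm4sf5, a tetraspan membrane protein, from 1073 to 1774 CPM. Their log2 ratios were 0.89 (0.74 to 1.04) and 0.73 (0.60 to 0.85), and 0.80 and 0.75 without shared barcodes. With equal weights they were 0.32 and 0.28, and with equal weights and no shared barcodes 0.79 and 0.28. Clec2h, a C-type lectin-like protein of gut epithelium, stood at 0.58 (0.49 to 0.68), just under 1.5-fold, and at 0.70 without shared barcodes. Structural genes of the microvillus were thus level by UMIs summed, and an enzyme and a membrane protein on its surface were not.

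**Figure D3:**
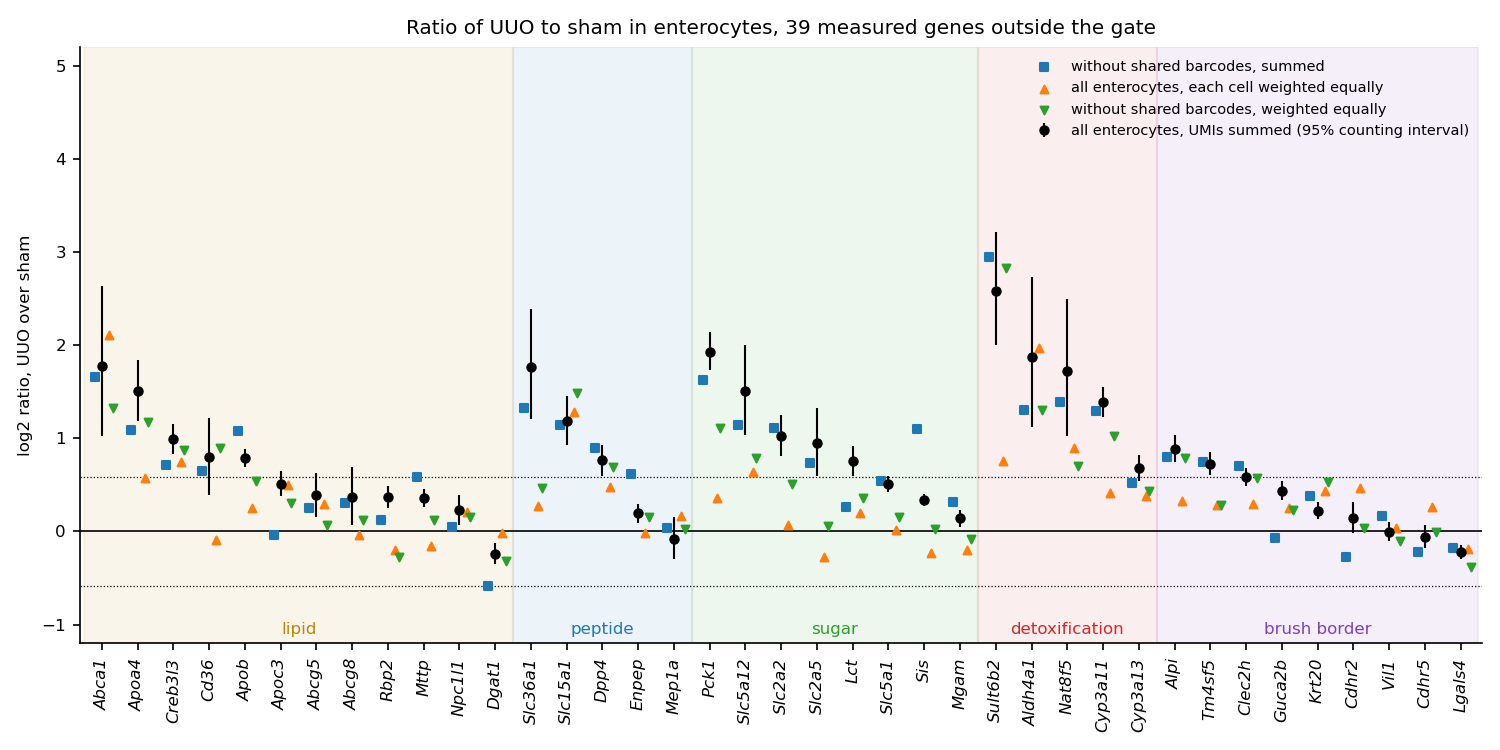
The log2 ratio of UUO over sham in enterocytes for the 39 measured genes outside the gate, grouped by function, by UMIs summed (black, with 95% counting interval), without shared barcodes (squares), with each cell weighted equally (upward triangles) and with both (downward triangles). Dotted lines mark 1.5-fold. The equal-weight values lie lower than the sums for most sugar and detoxification genes, for example 0.36 against 1.93 for Pck1, and Vil1, Cdhr2 and Cdhr5 lie within 0.5 of 0 in all 4.

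The share of cells with a molecule of a gene was also taken. At a fixed depth this share rises with the level of the gene. It does not by itself show how many cells carried a difference. Each cell was thinned to 1000 UMIs, which left out 51 of 112 sham and 77 of 323 UUO enterocytes as too shallow. Of those kept, 44 and 204 carried no shared barcode. Fabp2 was then counted in 79.5% of sham cells (exact binomial interval 64.7 to 90.2%) and 95.6% of UUO cells (91.8 to 98.0%), against 10.9 and 33.6% of thinned ILC3-like cells. Fabp2 is a gene of the gate, so these shares are a description. Pck1 was counted in 22.7% (11.5 to 37.8%) and 48.5% (41.5 to 55.6%) of enterocytes, against 1.14 and 4.79% of ILC3-like cells. Creb3l3 was in 38.6% (24.4 to 54.5%) and 71.6% (64.8 to 77.6%), against 2.37 and 6.79%. The intervals cover counting error over the cells of 1 library each and not the spread between libraries. Unthinned, over all enterocytes, Pck1 was in 43.8 and 63.8% and Creb3l3 in 58.9 and 75.9%.

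Alpi was counted in 38.6% (24.4 to 54.5%) of thinned sham cells and 62.3% (55.2 to 68.9%) of UUO cells, and in 1.34 and 4.82% of ILC3-like cells. For Cyp3a11 the shares were 34.1% (20.5 to 49.9%) and 50.5% (43.4 to 57.5%), and for Slc15a1 20.5% (9.8 to 35.3%) and 41.2% (34.4 to 48.3%). Vil1 was in 79.5 and 76.0% of cells. Sult6b2 had a UMI in 0 of 44 thinned sham cells, which at this depth allows a share of cells with a UMI of up to 8.04% and does not limit the cells that express it, and in 7.35% of UUO cells (4.17 to 11.8%), against 1.504 and 1.95% of ILC3-like cells. Unthinned, over all enterocytes, it was in 12.5 and 22.6%. Slc36a1 was likewise in 0 of 44 and in 8.82% (5.31 to 13.6%).

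In ILC3-like cells almost all members were higher after UUO. The 3110 sham and 4145 UUO cells had median depths of 2039.5 and 2173 UMIs, and all 12 ILC3 markers were counted in both. Of the 42 members measured there, 36 were at least 1.5 times higher after UUO and 0 lower, against 4.81% higher and 2.01% lower of the 10302 genes measured. The members' median log2 ratio was 1.22. By function it was 1.36 for lipid genes (13 of 15 past 1.5-fold), 1.28 for peptide (6 of 7), 1.21 for sugar (7 of 7), 0.99 for brush border (8 of 9) and 0.91 for detoxification (2 of 4). By these medians the function order of enterocytes was not that of ILC3-like cells, where detoxification genes were lowest. That lowest median was taken over Cyp3a11 (2.03), Cyp3a13 (1.46), Sult6b2 (0.36) and Aldh4a1 (0.30). For Sult6b2 and Aldh4a1 free RNA could not be told apart from a cell's own level, as described below. Without the 17 shared barcodes of each library 35 members were higher and 0 lower.

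The level in ILC3-like cells was low for most members. Fabp2 was at 109 CPM in sham and 435 CPM after UUO, a log2 ratio of 2.00 (1.88 to 2.11). Apoa1 was at 137 and 404 CPM (1.56), Anpep at 107 and 280.2 CPM (1.39) and Pck1 at 10.5 and 48.0 CPM (2.20). Even Vil1 and Cdhr5, level in enterocytes, were at 0.99 (0.71 to 1.28) and 0.68 (0.44 to 0.93) here. As a percentage of the enterocyte level in the same library, 39 of the 44 members lay under 10% in at least one library. For the 37 of these that were measured, the median was 1.82% in sham and 3.37% after UUO (1.87 and 3.60% against enterocytes without shared barcodes), and the percentage was higher after UUO for 34 of 37. Their log2 ratios in ILC3-like cells ran from 0.36 to 2.43, with a median of 1.27. Beside this, the share of all kept UMIs held by gated enterocytes differed by a log2 ratio of 1.39, or of 1.98 (2.46 and 9.68%) for the enterocytes without shared barcodes.

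The higher level appeared in each cluster of lymphocytes. The summed level of those 39 members went from between 1050 and 1210 CPM in the 6 ILC3-like clusters of the sham library to between 2648 and 3485 CPM in those of the UUO library, with log2 ratios from 1.31 to 1.53. In T cell-like cells (34 in sham, 76 after UUO) it went from 1056 to 2664 CPM, a ratio of 1.34. Lymphocytes of different kinds thus held nearly equal levels of these genes within a library, with a ratio that differed little between them. Fabp6, the bile acid binding protein of the ileum, was at 95.2 and 89.3 CPM in ILC3-like cells (-0.09). In enterocytes it was lower after UUO, at 8528 and 2454 CPM (-1.80).

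**Figure D4:**
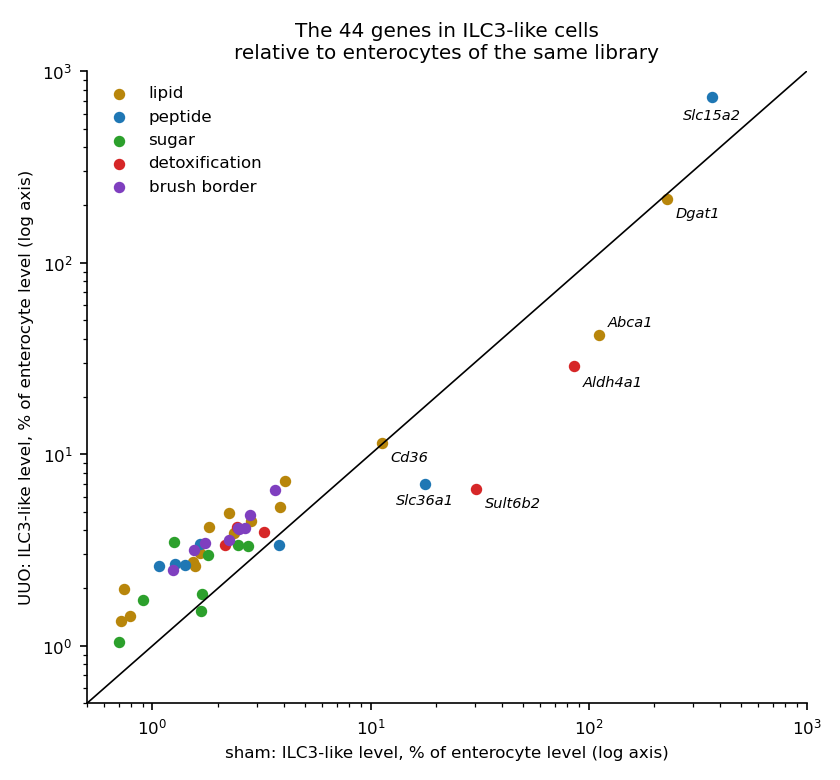
Level of each of the 44 genes in ILC3-like cells as a percentage of its level in enterocytes of the same library, in sham (horizontal, log axis) and after UUO (vertical, log axis), coloured by function, with the line of equality. Most genes lie between 0.7 and 8% and above the line, and Slc15a2, Dgat1, Abca1, Aldh4a1, Cd36, Slc36a1 and Sult6b2 lie to the right.

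A few members had a level in ILC3-like cells that was not small beside that in enterocytes. Dgat1 was at 3554 CPM in sham and 2827 CPM after UUO in ILC3-like cells, which was 228 and 214% of its enterocyte level (165 and 197% against enterocytes without shared barcodes), and it was the 1 member whose ILC3-like level was lower after UUO (-0.33, interval -0.36 to -0.30). It was counted in 91.6 and 87.9% of thinned ILC3-like cells. In the T cell-like cells Dgat1 was at 1498 and 989.5 CPM. Slc15a2 was at 46.5 and 122 CPM in ILC3-like cells, against 12.6 and 16.5 CPM in enterocytes, with a log2 ratio of 1.39 (1.21 to 1.57). Slc15a2 was higher after UUO in each of the 6 ILC3-like clusters, with ratios from 1.09 to 1.58.

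Abca1 (30.3 and 38.96 CPM) and Aldh4a1 (23.2 and 28.7 CPM) had log2 ratios of 0.36 and 0.30 in ILC3-like cells, against 1.78 and 1.87 in enterocytes. Slc36a1 (8.69 and 11.6 CPM, 0.41) and Sult6b2 (13.8 and 17.7 CPM, 0.36) were alike in this. In sham, these 4 genes had few UMIs in enterocytes and ILC3-like levels of 17.9 to 112% of the enterocyte level, so free RNA could not be told apart from a gene's own level in either kind of cell. Cd36 was at 11.3% of its enterocyte level in sham and 11.4% after UUO.

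**Figure D5:**
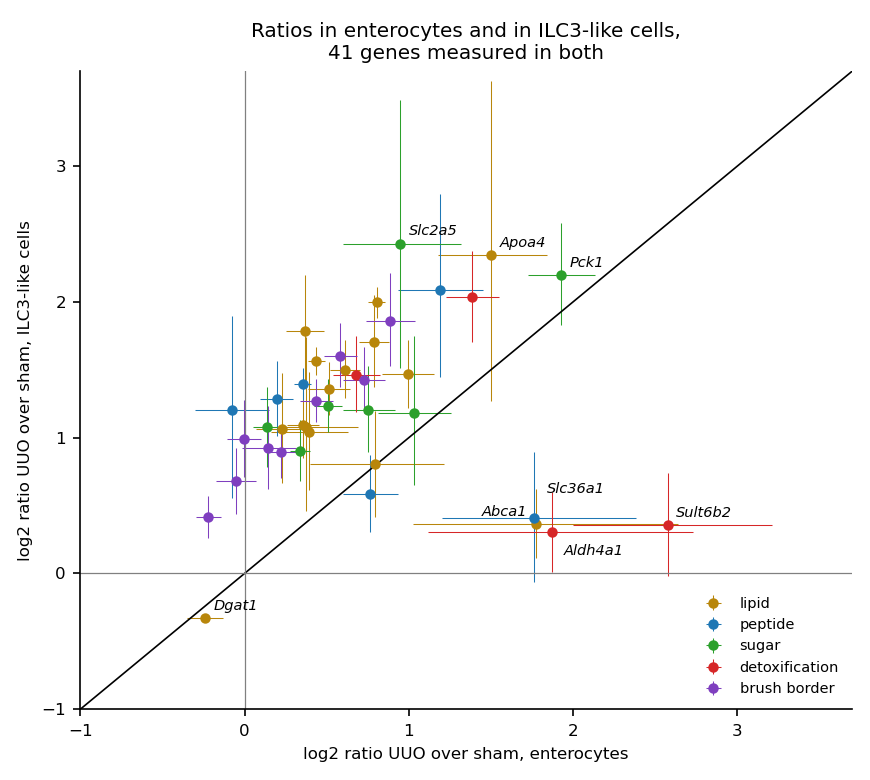
The log2 ratio of UUO over sham in enterocytes (horizontal) and in ILC3-like cells (vertical) for the 41 genes measured in both, with 95% counting intervals and the line of equality, coloured by function. Most genes lie above the line, while Slc36a1, Abca1, Aldh4a1 and Sult6b2 lie far below it and Dgat1 lies below 0 on both axes.

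Other genes of the same pathways, in lists without the members, were read in enterocytes in the same way, by UMIs summed, against 9.23% higher and 11.4% lower of all genes. Counts with equal weights stand against 21.0% higher and 15.8% lower. Of the genes of fatty acid oxidation and PPAR-alpha, 7 of 15 measured were at least 1.5 times higher and 0 lower, with a median log2 ratio of 0.54. Among them were Pdk4, which holds back glucose oxidation (59.5 and 175 CPM, 1.56, and 0.11 with equal weights), and Vnn1, a pantetheinase (81.1 and 199.8 CPM, 1.30, and 1.71 with equal weights). With equal weights and no shared barcodes Pdk4 was at 2.41, on 9 sham UMIs, and Vnn1 at 1.14. With equal weights 2 of the 15 were higher and 3 lower. Other lipid absorption genes gave 3 of 14 higher and 0 lower, among them Dgat2, the other triglyceride synthase (265 and 525 CPM, 0.99), and the lysosomal lipase Lipa (61.3 and 132 CPM, 1.10). With equal weights 2 of the 14 were higher and 1 lower.

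Of the other peptide and amino acid genes, 8 of 17 were higher and 1, the glutamate transporter Slc1a1, lower (-0.92), and with equal weights 3 were higher and 0 lower. Ace, the angiotensin-converting enzyme, was at 546 and 1315 CPM (1.27) and the neutral amino acid transporter Slc6a19 at 222 and 515 CPM (1.21). Of the other detoxification genes, 13 of 24 were higher and 0 lower, including the bilirubin-conjugating Ugt1a1 (9 and 147 UMIs, 1.91), the carboxylesterase Ces2c (1.42), Cyp3a25 (1.14, and 0.06 with equal weights) and the export pump Abcc2 (1.03). With equal weights 6 of the 24 were higher, a share near the background, and 1 lower. Of the other sugar genes 3 of 12 were higher and 1, G6pc, lower, and with equal weights 0 were higher and 5 lower. Of the other brush border genes 1 of 18, the scaffold Pdzk1, was higher (0.95) and 2 were lower, Tmigd1 (672 and 297 CPM, -1.18) and Mall (-0.61), which with equal weights were at -0.03 and -0.17. The median log2 ratios of the lists were 0.69 for detoxification, 0.54 for fatty acid oxidation, 0.49 for peptide, 0.17 for lipid, 0.07 for brush border and -0.05 for sugar genes, the last being lowest here and second highest among the member groups. With equal weights the detoxification and brush border medians were 0.14 and -0.02. Without shared barcodes the counts higher and lower were 10 and 0 for fatty acid oxidation, 3 and 0 for other lipid, 8 and 0 for peptide, 3 and 2 for sugar, 15 and 0 for detoxification and 2 and 2 for brush border genes. Those counts stand against 18.8% higher and 12.6% lower of the 4602 genes measured without shared barcodes.

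Genes that mark position along the gut and the villus also differed, and their part in the ratios above was not tested. Of 7 ileal genes 2, Fgf15 and Cubn, were higher and 3, Fabp6, Slc10a2 and Slc51b, lower. Fabp6 was at 8528 CPM in sham enterocytes and 2454 CPM after UUO (-1.80, interval -1.85 to -1.74), and the ileal bile acid importer Slc10a2 at 364 and 168 CPM (-1.12). Without shared barcodes they were at -1.58 and -0.36, and with equal weights at -0.61 and -0.22. Of 5 measured duodenal genes of iron and calcium uptake 2 were higher and 0 lower. Of 4 measured villus tip genes 3 were higher, led by Ada, adenosine deaminase (4 and 169 UMIs, 3.28). Of 6 villus bottom genes 3 were lower, including the antimicrobial lectin Reg3g (4101 and 1507 CPM, -1.44). Of 14 measured enterocyte transcription factors 2 were higher and 2 lower, with Hnf4g at 0.60 and Gata6 at 0.76, and Tcf7l2 at -0.90 and Nr1h4, the bile acid receptor, at -0.66. With equal weights 3 were higher and 3 lower, and Gata6 turned to -0.39. With equal weights and no shared barcodes Gata6 was at 0.63, on 13 sham UMIs. Without shared barcodes 2 villus tip genes were higher and 2 villus bottom genes lower, against 18.8% higher and 12.6% lower of all genes. In the same cells 3 transcription factors were higher and 1 lower.

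The enterocytes were therefore split by ileal character, after the values were seen, into cells with Fabp6 and Slc10a2 at 0.5% of UMIs or more and other cells, without shared barcodes. The ileal-type cells were 19 of 55 in sham (34.5%, interval 22.2 to 48.6%) and 69 of 258 after UUO (26.7%, 21.4 to 32.6%). The median log2 ratio of the members outside the gate was 0.69 in ileal-type and 0.53 in other cells. Pck1 and Cyp3a11 were at 3.97 and 3.44 in ileal-type cells and at 1.06 and 0.76 in other cells. In ileal-type cells both rest on 3 sham UMIs, with intervals of 2.39 to 6.26 and 1.85 to 5.74. Slc15a1 was at 1.46 (20 sham UMIs) and 0.96, Creb3l3 at 0.997 (40 sham UMIs) and 0.42, and Fabp1 at 2.16 (6 sham UMIs) and 0.05. The detoxification median was 0.94 in other cells, where the peptide genes had the highest, 0.96. In ileal-type cells it could be taken over 4 of the 5 genes, and 2 of the 4, Nat8f5 and Aldh4a1, had 2 sham UMIs each, so it is not given. The enterocyte clusters, shared barcodes included, also differed in make-up. The cluster led by Fabp6 held 41 gated cells in sham and 132 after UUO. A deep cluster (median 19264 UMIs), with Fabp1, Rbp2, Sis, Slc2a2, Cyp3a11 and Apoa4 among its leading genes, held 15 and 99. A shallow cluster (median 689.5 UMIs) held 51 and 53. The part of this make-up in the ratios was not tested.

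Markers of other cell types were summed in the enterocytes. Paneth cell markers (7 genes) summed to 1265 and 1812 CPM, but to 1498 and 1413 CPM without shared barcodes. Goblet cell markers (7 genes) summed to 705 and 763 CPM, or 959.7 and 1147 CPM. The 7 enteroendocrine markers summed to 171 CPM in sham enterocytes and 14.9 CPM after UUO (196 and 17.9 CPM without shared barcodes), and to 91.4 and 8.13 CPM in ILC3-like cells. Macrophage markers (9 genes) summed to 258 and 203 CPM (294 and 211 CPM), and tuft cell markers (6 genes) to 5.41 and 6.21 CPM (0 and 8.21 CPM). The part of these cells in the ratios was not tested.

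Some members are also genes of the kidney tubule, and the series has a kidney library with counts and gene names of its own, labelled PD-1 knockout, 3 days after UUO, of sorted innate lymphoid cells. In its 7007 cells and 16466027 UMIs, 12 of the 44 genes had 0 UMIs, which allows up to 0.182 CPM (3 counts of the total), among them Fabp1, Fabp2, Apoa1, Apoa4, Sis and Alpi. A further 5 had 1 to 3 UMIs. Above 10 CPM were 8 genes: Dgat1 at 374 CPM, Dpp4 at 47.1 CPM, Aldh4a1 at 25.4 CPM, Tm4sf5 at 21.7 CPM, Abca1 at 20.3 CPM, Slc15a2 at 17.9 CPM, Slc36a1 at 12.9 CPM and Anpep at 10.6 CPM. Of the 5 members not under 10% of the enterocyte level in intestinal ILC3-like cells, Dgat1, Abca1, Slc15a2 and Aldh4a1 are in that group, and Cd36 was at 8.20 CPM. The rest of that group, Dpp4, Tm4sf5, Slc36a1 and Anpep, are among the 39 members under 10% in at least one library. In intestinal ILC3-like cells Dpp4 was at 22.9 and 34.5 CPM and Tm4sf5 at 26.8 and 71.9 CPM. Whether lymphocytes themselves express these genes was not tested. The kidney library differs from the intestinal ones in organ and genotype, and its values stand alone.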

How the data were processed

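Cells sorted as innate lymphoid cells were captured with BD Rhapsody, per the labels' protocols. The deposited values are raw UMI counts per gene and cell. Per the submitters' processing notes, CASAVA 1.8, UMI-tools and Seurat were used with mm10 as the genome. The sources used here do not give the aligner, the annotation or how cells were called. Barcodes were kept when they had 500 or more UMIs, 250 or more genes and no more than 20% of UMIs from mitochondrial genes, and no doublet caller was run.

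The 2 intestinal libraries were clustered together (scaled to 10000 UMIs, log, 2000 variable genes, 30 principal components, 15 neighbours, Leiden resolution 1.0, leidenalg 0.10.2). Clusters were named from marker lists (3 or more markers at least 2 times higher). Since most cells were ILC3s, clusters still unnamed were compared with the named ones and called ILC3-like with 6 or more markers, a step chosen after seeing the first clustering.

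UMIs were summed over cells per library and divided by the total. A gene was measured with 50 UMIs or more in both libraries together, and higher or lower past 1.5-fold. Intervals are exact (Poisson, or conditional binomial for ratios). A fold from a library with 0 counts was taken against 3 counts. Shares of cells with a molecule come from cells thinned to 1000 UMIs. The calculation was tested on simulated data. Python 3.11.15, numpy 2.4.6, scipy 1.17.1 and pandas 2.3.3 were used.

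The members and lists were chosen with earlier results of these data known. All 44 members are named, and up to 4 measured genes per pathway list by size of ratio. The removal of shallow copies of shared barcodes, equal weights without shared barcodes, the ileal split, the sum without Dgat1, the 10% mark for ILC3-like levels, the T cell-like comparison and the printed promoters were chosen after seeing the data. Macrophage-like cells numbered under 50 in sham and were not used. Positions follow GENCODE on GRCm38, promoters RefSeq GRCm38.p6. Counts of wild-type kidney were not used here.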

Additional observations from a re-analysis of the deposited data

How the results depend on the processing

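No paired analysis was possible because each group has 1 library. Each result was recomputed for other gates, cell sets, weights and count minimums. In enterocytes the count of members at least 1.5 times higher, 22, was 13 with a gate of 0.25%, 36 with epithelium-like clusters in place of the gate, 8 with cells weighted equally and 14 with equal weights and no shared barcodes. These counts include the gate genes. The share of all genes was 9.23% in the main setting and 21.0% with equal weights. It was not taken for the other settings in that list, so their counts have no background. The epithelium-like clusters also include a Paneth cluster. The count at least 1.5 times lower, 0, was 1 without shared barcodes and 1 in other cells without shared barcodes, the latter with no share of all genes taken. The summed log2 ratio of the 40 members outside the gate, 0.45, was 0.13, 0.34 and 0.32 with gates of 0.25, 1 and 2%, 0.78 for epithelium-like clusters, 0.15 and 0.23 with equal weights (all cells, and without shared barcodes), 0.52 when centred on all measured genes, and 0.52 in ileal-type and 0.30 in other cells without shared barcodes. It stayed above 0 in all settings run. In ILC3-like cells the summed ratio, 0.09, is dominated by Dgat1: it was 1.15 without Dgat1 and 0.14 with a marker gate in place of clusters. For single genes in enterocytes, 330 values moved by less than their counting interval, 276 moved by more and 7 reversed. The 7 were Fabp1 (-0.0045 with a gate of 2%, -0.28 with equal weights, -0.12 with equal weights and no shared barcodes), Cd36 (-0.090) and Slc2a5 (-0.28) with equal weights, Slc36a1 in ileal-type cells (-0.16) and Lct in other cells (-0.18). In ILC3-like cells 296 did not move beyond it and 12 did. The causes were not tested. ILC3-like values over all deposited cells were not run, since cells not kept have no cluster. Depth limits the genes with few sham UMIs.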
